A study of Mus musculus with 9 samples.

Results

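The insulin-like growth factor (IGF) system was followed during the formation of the mouse olfactory bulb, the first relay of smell in the brain. Its members were all probe sets of the array table whose only gene symbol was Igf1, Igf2, Igf1r, Igf2r, Igfbp2, Igfbp3, Igfbp4, Igfbp5, Igfbp6 or Igfbp7. This rule took 28 probe sets for 10 genes, of 45101 probe sets on the array, and all 10 genes were among the 10864 tested. A total of 24 of the probe sets read log2 5 or more on at least 2 arrays, and the other 4, of Igf2, Igfbp4 and Igfbp7, read under 5 on every array. The samples were olfactory bulbs of CD1 mice, an outbred stock, with no treatment or allele named in the labels, from 8 embryonic ages (E11, E12, E13, E14, E15, E16, E17 and E18) and from birth (P0). Each age was 1 array made from the RNA of 1 animal, amplified in 2 rounds. No age had a replicate, so the error of every trend is the scatter of the 9 animals around it, and a difference between single ages has no test.

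IGF1 and IGF2 are secreted growth factors that act on the receptor tyrosine kinase IGF1R, which signals through adaptor proteins to the PI3K and Akt kinases and to the Ras and MAP kinases. IGF2R, the cation-independent mannose 6-phosphate receptor, takes IGF2 into the cell for breakdown and also sorts lysosomal enzymes. The IGF binding proteins hold the factors outside the cell and can hinder or prolong their action. In mice, IGF signalling is known in the olfactory bulb for the targeting of sensory axons and for the placing of newborn neurons.

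Igf1 and Igfbp5 were the members with the steepest rise, and the sequences before their starts are shown with those of Igfbp2, the neighbour of Igfbp5 that had a falling slope, and of Igfbp6, the last member to exceed the filter level. The sequences are the 250 bases before the RefSeq start in the build GRCm38.p6, 5′ to 3′ on the strand of the gene. Capitals mark 3 motifs, searched on both strands. The first is TATAAA, named the TATA box. Another is GGGCGG, named the GC box. The last is the CCAAT box, searched by the letters of its name. The Igf1 window lies at chr10:87860861-87861110 (plus strand), inside the annotated span of the gene (chr10:87858265-87937047), so that the start used is not its outermost one, and that of Igfbp5 at chr1:72874866-72875115 (minus strand). The Igfbp2 window lies at chr1:72824230-72824479 (plus strand, the first of 2 listed starts) and that of Igfbp6 at chr15:102143936-102144185 (plus strand).
Igf1: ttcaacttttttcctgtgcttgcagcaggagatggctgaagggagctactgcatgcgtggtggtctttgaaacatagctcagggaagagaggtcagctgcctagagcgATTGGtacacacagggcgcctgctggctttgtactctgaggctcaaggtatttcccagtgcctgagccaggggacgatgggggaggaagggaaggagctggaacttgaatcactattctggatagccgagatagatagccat
Igfbp5: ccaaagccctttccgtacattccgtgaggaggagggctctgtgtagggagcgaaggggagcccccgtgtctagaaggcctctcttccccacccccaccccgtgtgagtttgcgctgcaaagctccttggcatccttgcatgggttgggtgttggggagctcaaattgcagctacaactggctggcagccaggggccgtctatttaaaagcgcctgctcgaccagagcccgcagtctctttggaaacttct
Igfbp2: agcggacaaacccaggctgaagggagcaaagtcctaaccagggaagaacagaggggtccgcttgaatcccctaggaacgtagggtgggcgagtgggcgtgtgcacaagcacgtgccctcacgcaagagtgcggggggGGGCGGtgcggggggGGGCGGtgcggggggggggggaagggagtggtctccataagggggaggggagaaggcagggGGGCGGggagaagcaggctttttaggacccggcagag
Igfbp6: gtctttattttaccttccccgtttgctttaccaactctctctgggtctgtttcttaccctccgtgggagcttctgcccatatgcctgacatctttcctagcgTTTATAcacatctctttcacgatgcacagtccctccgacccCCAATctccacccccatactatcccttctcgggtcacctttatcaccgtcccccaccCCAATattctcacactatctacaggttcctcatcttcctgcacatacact

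The Igf1 window held 1 CCAAT box, on the reverse strand, and the Igfbp5 window held none of the 3 motifs. The Igfbp2 window held 3 GC boxes. The Igfbp6 window held 2 CCAAT boxes and 1 TATA box, which lay on the reverse strand 148 bases before the start. Over the first listed start of each of the 10 genes, 2 had a TATA box, 2 a CCAAT box and 4 a GC box, whereas 12.4%, 33.8% and 32.7% of the 32851 windows of the RefSeq table held these motifs. Such a match is one of letters only. The RefSeq shares count every listed start of a gene and the member counts only the first, so they are of unlike sets. Igfbp2 (chr1:72824480-72852474, plus strand) and Igfbp5 (chr1:72858065-72874865, minus strand) point towards each other, with 5590 bases between their ends and 0 other annotated genes in that gap.

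Most members of the IGF system rose with age. By the linear fit over the 9 arrays (limma, Benjamini-Hochberg over all genes, threshold 0.05), Igf1, Igf2, Igfbp3, Igfbp4, Igfbp5, Igfbp6 and Igfbp7 rose, Igf2r and Igfbp2 fell, and Igf1r did not pass. These are 7 rising and 2 falling of 10 members, beside 25.2% rising and 21.9% falling of all genes tested. Igfbp6 passed the filter only through the 2 ages at which it was high, and with a filter of 5 arrays 6 of 9 members rose. The median slope of the members was 0.38 log2 units per day, and that of all genes was 0.0020. A level here is a log2 reading of 1 probe set, and levels of different genes are not compared. A difference between members is used only for its slope, in which a constant offset between probe sets cancels.

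**Figure D1:**
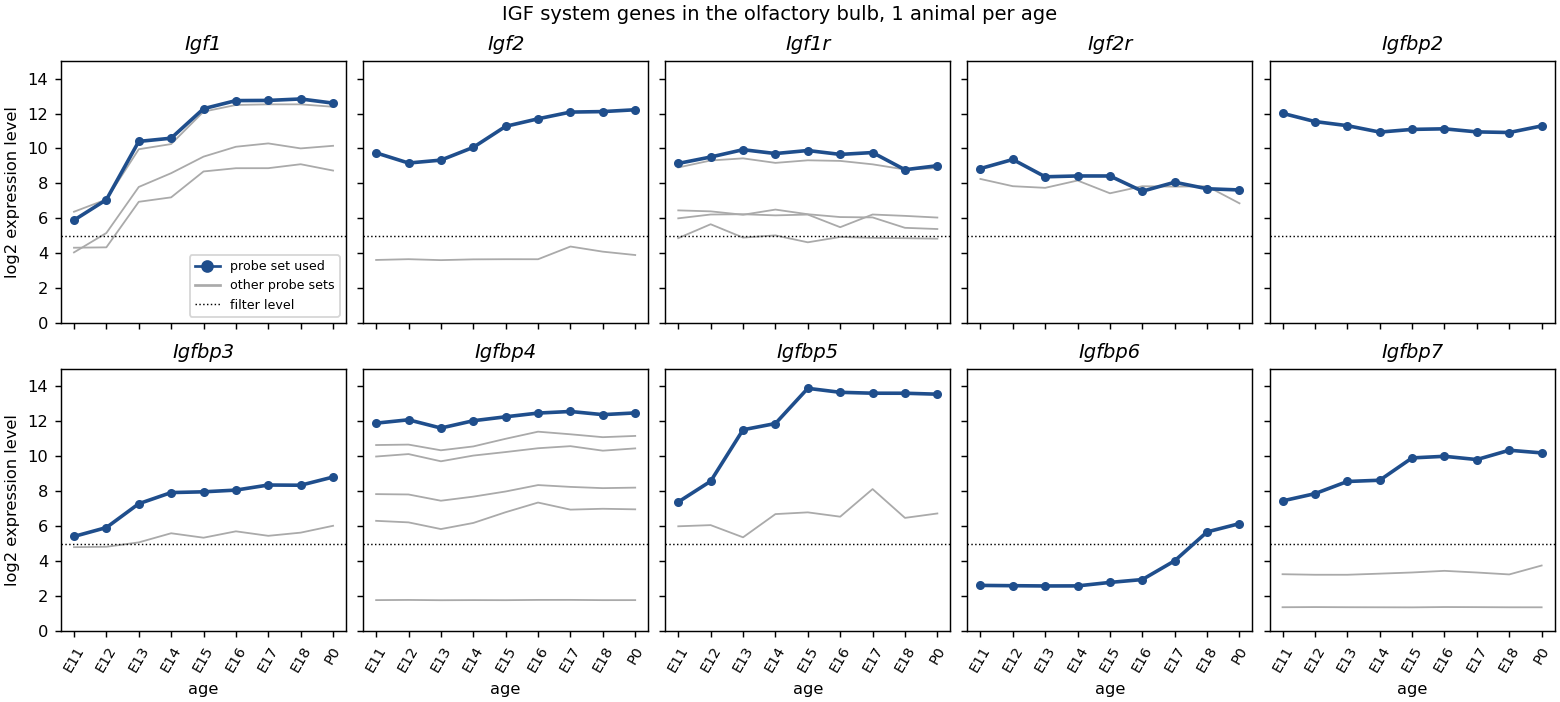
Log2 expression level (y axis) of every probe set of the 10 genes on the 9 arrays by age (x axis), 1 animal per age. The probe set used for each gene is blue with points, other probe sets are grey, and the dotted line is the filter level of 5. Igf1 and Igfbp5 climb up to E15 and then stay level, Igf2 climbs from E13 on, and Igfbp6 exceeds 5 at E18 and P0 only.

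The ligand Igf1, made in the brain by neurons among other cells, read 5.89 at E11, 7.07 at E12, 10.40 at E13, 10.59 at E14, 12.27 at E15, 12.74 at E16, 12.75 at E17, 12.83 at E18 and 12.59 at P0. It was low at E11 and E12 and lay within a narrow band from E15 on. The slope was 0.85 ± 0.14 log2 units per day (moderated SE, n = 9 arrays; limma adjusted p = 0.000851), the 39th largest rising slope of all genes tested, and the level at P0 was 104-fold that at E11. All 4 Igf1 probe sets rose when the 21724 probe sets that passed the filter were tested one by one, with slopes of 0.62 to 0.85. The curve bent: the fit with age squared had a negative quadratic term (limma adjusted p = 0.00416) with a turning point at day 17.3, where E18 is day 18 and P0 day 19. Over the 5 arrays from E11 to E15 alone, a window chosen after the levels were seen, the slope of Igf1 was 1.63 (limma adjusted p = 0.00606), and over the 5 arrays from E15 to P0 it was 0.073 (limma adjusted p = 0.538). Without the E11 and E12 arrays the slope was 0.41 (limma adjusted p = 0.0116) and the bend was no longer called (quadratic term, adjusted p = 0.0961).

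Igf2, the second ligand, an imprinted gene strongly expressed in the embryo and in the coverings of the brain, had another course. It read 9.75 at E11, 9.17 at E12, 9.33 at E13, 10.06 at E14, 11.27 at E15, 11.70 at E16, 12.08 at E17, 12.11 at E18 and 12.21 at P0. The lowest readings were those at E12 and E13, and each later array was higher than the one before. Igf2 rose by 0.43 ± 0.054 log2 units per day (moderated SE, n = 9 arrays; limma adjusted p = 0.000179) and was 5.53-fold higher at P0 than at E11. It was 1 of the 2 members that rose from E15 to P0 alone (slope 0.23, limma adjusted p = 0.0466). A second Igf2 probe set stayed under 5 on every array, with a highest reading of 4.39. RefSeq lists 4 starts for Igf2, and the array does not tell their transcripts apart.

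The slope of Igf1 minus Igf2 was 0.42 per day (two-sided exact permutation test over the 9 arrays, p = 0.0499, and 0.0748 when adjusted over the 3 differences computed), which misses the threshold, and the slopes were not shown to differ. The slope fell to 0.19 without the E11 array (adjusted exact permutation p = 0.307), passed without the E13 array (0.0288) or the P0 array (0.0468), and from E13 to P0 its direction turned (slope -0.072, adjusted exact permutation p = 0.272).

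Igf1r, the signalling receptor for both ligands, had no linear slope that passed. The probe set used read 9.14 at E11, 9.51 at E12, 9.93 at E13, 9.71 at E14, 9.88 at E15, 9.66 at E16, 9.76 at E17, 8.78 at E18 and 9.01 at P0. Readings were highest from E13 to E17 and lowest at E18 and P0. The slope was -0.051 ± 0.046 (moderated SE, n = 9 arrays; limma adjusted p = 0.390), with a 95% interval of -0.15 to 0.052 log2 units per day. From E13 to P0 alone Igf1r fell (slope -0.17, limma adjusted p = 0.0289). A fitted peak at day 14.5 passed (quadratic term, limma adjusted p = 0.0403), and this call held without the E18 or the P0 array and ended without any 1 of the other 7. Of the 5 Igf1r probe sets, 1 fell (slope -0.13 ± 0.032, 5.39 at P0 and 6.46 at E11; limma adjusted p = 0.00749) and 4 did not pass.

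Igf2r, the receptor that clears IGF2, fell. The probe set used read 8.85 at E11, 9.37 at E12, 8.38 at E13, 8.42 at E14, 8.42 at E15, 7.55 at E16, 8.07 at E17, 7.69 at E18 and 7.62 at P0. All readings from E16 on lay under all earlier ones. The slope was -0.19 ± 0.038 (moderated SE, n = 9 arrays; limma adjusted p = 0.00266), and the level at P0 was 2.34-fold lower than at E11. The second Igf2r probe set, at 6.86 at P0 and 8.25 at E11, had a slope of -0.096 and did not pass (limma adjusted p = 0.0748). The slope of Igf1r minus Igf2r was 0.14 per day (two-sided exact permutation p = 0.0917, and 0.0917 after adjustment over the 3 differences), so that the receptors were not shown to differ in slope. From E13 to P0 alone the direction turned (slope -0.023, adjusted exact permutation p = 0.762).

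Igfbp5, a binding protein known from developing brain and muscle, had the steepest rise of the binding proteins. It read 7.38 at E11, 8.57 at E12, 11.51 at E13, 11.87 at E14, 13.88 at E15, 13.66 at E16, 13.60 at E17, 13.60 at E18 and 13.55 at P0. As with Igf1, the E11 and E12 readings were far under the rest and the arrays from E15 on were close together. Igfbp5 rose by 0.76 ± 0.14 log2 units per day (moderated SE, n = 9 arrays; limma adjusted p = 0.00165) and was 72.0-fold higher at P0 than at E11. The call ended by exact rank correlation with age (rho 0.67, two-sided exact test, adjusted p = 0.115), and without the E11 and E12 arrays the slope was 0.33 (limma adjusted p = 0.0431). Its quadratic term passed (limma adjusted p = 0.00425) with a turning point at day 17.1, but not from E13 to P0 alone (adjusted p = 0.152). The slope was 1.63 from E11 to E15 (limma adjusted p = 0.00557) and -0.072 from E15 to P0 (limma adjusted p = 0.326). These values come from a probe set whose suffix marks possible matches to several transcripts. The other Igfbp5 probe set read 5.36 to 8.12, with its highest value at E17, and did not pass (slope 0.16 ± 0.073, limma adjusted p = 0.101), so that the size of the rise depended on the probe set.

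**Figure D2:**
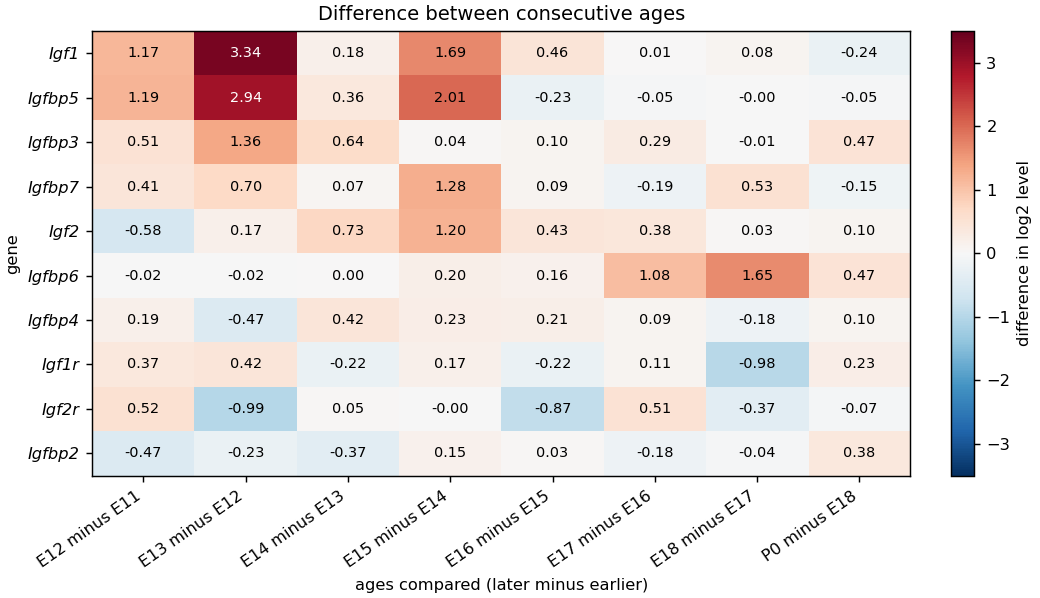
Difference in log2 level between each age and the one before it (columns) for the 10 genes (rows), 1 array per age and no test. Red is higher at the later age. The largest steps are those of Igf1 (3.34) and Igfbp5 (2.94) between E12 and E13, and both genes step up again between E14 and E15, by 1.69 and 2.01. Each gene is shown by the probe set used for it, and the second Igfbp5 probe set did not share these steps.

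The rise of Igf1 and Igfbp5 fell largely into the same daily steps. At E13 Igf1 was 3.34 and Igfbp5 2.94 log2 units above the E12 array, and at E15 they were 1.69 and 2.01 above the E14 array. Between E13 and E14 the differences were 0.18 for Igf1 and 0.36 for Igfbp5. The Igfbp5 steps are those of the probe set used. Its second probe set read 6.05 at E12, 5.36 at E13, 6.69 at E14 and 6.79 at E15, and did not share them. A level at least 2-fold higher at E13 than at E12, with values under 5 set to 5, was seen for 3 of 10 members (Igf1, Igfbp3 and Igfbp5), beside 5.77% of all genes. At E15 against E14 it was seen for 4 members (Igf1, Igf2, Igfbp5 and Igfbp7), beside 4.69% of all genes. Over all genes the median step was 0.072 from E12 to E13 and 0.10 from E14 to E15. These steps compare 1 animal with 1 animal, and the animals differed in Xist, which female cells make from their silenced X. Xist read 13.42 at E11, 13.98 at E12, 2.68 at E13, 2.76 at E14, 13.96 at E15, between 2.53 and 2.75 from E16 to E18, and 13.80 at P0, so that both steps fell where it changed. With 1 animal per age, a change with age and a difference between the animals cannot be told apart in these steps. With Xist as a covariate 7 members rose, and its part in the single steps was not tested.

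Igfbp3 and Igfbp7 rose as well. Igfbp3, the main carrier of IGFs in blood and a gene of endothelium and other cells, read 5.41 at E11, 5.91 at E12, 7.28 at E13, 7.92 at E14, 7.96 at E15, 8.06 at E16, 8.35 at E17, 8.34 at E18 and 8.81 at P0. It rose by 0.39 ± 0.057 per day (moderated SE, n = 9 arrays; limma adjusted p = 0.000465), 10.6-fold over the course. The second Igfbp3 probe set rose too, but by less (slope 0.14 ± 0.032, 4.79 at E11 and 6.02 at P0; limma adjusted p = 0.00694). The size of the rise thus depended on the probe set. Without the E11 and E12 arrays the slope of Igfbp3 was 0.21 (limma adjusted p = 0.00356). Igfbp7, a related secreted protein of vessels that binds IGFs weakly, read 7.44 at E11, 7.85 at E12, 8.55 at E13, 8.62 at E14, 9.90 at E15, 9.99 at E16, 9.81 at E17, 10.34 at E18 and 10.19 at P0. It rose by 0.37 ± 0.045 per day (moderated SE, n = 9 arrays; limma adjusted p = 0.000151), and its other 2 probe sets were under 5 throughout. Both passed in the early window and not in the late one: from E11 to E15 the slope was 0.71 for Igfbp3 and 0.57 for Igfbp7 (limma adjusted p = 0.00784 for each), and from E15 to P0 it was 0.20 (adjusted p = 0.106) and 0.092 (adjusted p = 0.434).

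In the E11 to E15 window 4 members rose (Igf1, Igfbp3, Igfbp5 and Igfbp7) and 1 fell (Igfbp2), beside 12.7% rising and 8.44% falling of all genes. In the E15 to P0 window 2 rose (Igf2 and Igfbp6) and 0 fell, beside 1.93% rising and 1.59% falling. Of these, Igfbp6 had entered the test only through E18 and P0, the late end of this same window, so its rise there was set in part by the filter. The difference between the windows was not tested, other than by the quadratic term over all arrays.

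Igfbp6, a binding protein that prefers IGF2, was the latest to appear. It read 2.60 at E11, 2.59 at E12, 2.57 at E13, 2.58 at E14, 2.78 at E15, 2.94 at E16, 4.02 at E17, 5.67 at E18 and 6.14 at P0. Only the E18 and P0 arrays exceeded the filter level, so the gene entered the test through the ages at which it was high. Its slope was 0.44 ± 0.092 (moderated SE, n = 9 arrays; limma adjusted p = 0.00303) on readings mostly under that level, and 0.11 with values under 5 set to 5 (limma adjusted p = 0.0337). The level at P0 was at least 2.20-fold that at E11. From E15 to P0 the slope was 0.95 (limma adjusted p = 0.0142). A fitted dip at day 13.0 (quadratic term, limma adjusted p = 0.0227) rested on readings under 5 and was not called with those set to 5.

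Igfbp4, the binding protein that the protease PAPPA cleaves, changed little in size but in 1 direction over its probe sets. The probe set used read 11.89 at E11, 12.08 at E12, 11.61 at E13, 12.03 at E14, 12.25 at E15, 12.47 at E16, 12.56 at E17, 12.38 at E18 and 12.48 at P0. All arrays from E15 on were above all earlier ones. Igfbp4 rose by 0.093 ± 0.024 per day (moderated SE, n = 9 arrays; limma adjusted p = 0.0101), 1.50-fold over the course. All 5 probe sets that passed the filter rose, with slopes of 0.077 to 0.14, although probe sets of 1 gene share their arrays and are no replicates.

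Igfbp2, a binding protein of the embryonic neuroepithelium and of glia, was highest at the start. It read 12.01 at E11, 11.54 at E12, 11.30 at E13, 10.94 at E14, 11.09 at E15, 11.12 at E16, 10.95 at E17, 10.91 at E18 and 11.29 at P0. The E11 and E12 readings were the 2 highest, and those from E14 to E18 lay within a narrow band. Igfbp2 fell by 0.088 ± 0.032 per day (moderated SE, n = 9 arrays; limma adjusted p = 0.0449), and was 1.65-fold lower at P0 than at E11. This call ended without any 1 of the E11, E12, E13, E15, E16, E17 or E18 arrays (limma adjusted p = 0.0536 to 0.286), and from E13 to P0 alone the slope was -0.0084 (limma adjusted p = 0.874). A fitted dip at day 16.2 passed (quadratic term, limma adjusted p = 0.0292) and ended without the E11, E14, E15 or P0 array. The slope of Igfbp5 minus Igfbp2 was 0.85 per day (two-sided exact permutation test, p = 0.00123, and 0.00369 adjusted over the 3 differences), so the 2 neighbours differed in slope, but not by exact rank correlation (adjusted p = 0.0934) or from E13 to P0 alone (adjusted exact permutation p = 0.246).

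Bends were called for 5 members in all. Fitted peaks passed for 3 (Igf1, Igf1r and Igfbp5), beside 4.96% of all genes, and dips for 2 (Igfbp2 and Igfbp6), beside 1.26%. The dip of Igfbp6 rests on readings under the filter level, and with values under 5 set to 5 only 1 dip was called, that of Igfbp2. With the 7 arrays from E13 to P0 alone, 0 peaks and 0 dips were called. For Igf1 and Igfbp5 the fitted turning point stands for a climb that levels off, since from E15 on Igf1 stayed between 12.27 and 12.83 and Igfbp5 between 13.55 and 13.88.

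The tissue was checked against genes of the bulb. Eomes and Tbr1, transcription factors of the projection neurons, read 11.34 to 12.60 and 10.29 to 12.11 over the ages, and Dlx1, a factor of the interneuron lineage, 10.03 to 12.42. Not every gene of the projection neuron list was high at the first ages. Tbx21 read 2.40 at E11 and 4.15 at E12, and Slc17a7 was under 5 from E11 to E14. Array medians lay between 4.08 and 4.23. Most genes of skeletal muscle (Myog, Myh3, Ckm, Tnnt1 and Myl1) did not pass the filter, but Acta1 rose (6.22 at P0 and 4.73 at E11; limma adjusted p = 0.0114). Of the olfactory sensory neuron list Omp and Cnga2 did not pass the filter, Gng13 and Adcy3 rose and Ebf1 fell. In whole bulbs, fewer cells of a type and less RNA per cell cannot be told apart.

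Markers of several cell types mostly rose, as Igf1 and Igfbp5 did. The counts below stand beside 25.2% rising and 21.9% falling of all genes tested. Of 6 projection neuron genes 4 rose and 1 fell, and their median reading was 8.76 at E11, 10.33 at E12, 11.82 at E13, 12.04 at E15 and 11.19 at P0. Within that list Cdhr1, a cadherin of mitral and tufted cells, read 6.39 at E11, 8.65 at E12, 11.62 at E13, 11.63 at E14, 13.67 at E15 and 13.86 at P0, stepping up between the same ages as Igf1 and Igfbp5. This gene was named after its values were seen, and it was not alone in the list. Tbx21 read 4.15 at E12, 6.08 at E13, 4.91 at E14 and 7.01 at E15. Slc17a7 read 2.51, 3.91, 3.94 and 5.25 at these ages, mostly under the filter level, and Reln 12.25, 13.61, 13.55 and 14.02. Tbr1 and Eomes did not share steps of such size. Tbr1 read 12.01 at E13 against 12.11 at E12, and 11.48 at E15 against 11.88 at E14. Eomes read 12.40 at E13 against 12.00 at E12, and 12.60 at E15 against 12.30 at E14. Of 7 interneuron genes 6 rose and 0 fell (list median between 9.46 and 10.68), among them Gad1, an enzyme of GABA synthesis (13.13 at P0 and 10.76 at E11), and Th, an enzyme of dopamine synthesis (10.12 at P0 and 6.37 at E11). All 6 astrocyte genes tested rose (list median between 5.58 and 10.55, with Gfap under 5 on every array), and 5 of 6 ensheathing cell genes rose (list median between 4.19 and 8.39). Aqp4 of the astrocyte list exceeded the filter level only from E17 on, so its rise was set in part by the filter. Of the microglia list 5 of 6 tested genes rose (list median between 5.15 and 7.40), while Aif1, Ptprc, Itgam and Trem2 were under 5 on every array. Their part in the rise of Igf1 and Igfbp5 was not tested.

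Markers of the brain coverings mostly rose, as Igf2 did. Of 10 genes of meninges and mesenchyme 9 rose and 0 fell, beside 25.2% rising and 21.9% falling of all genes tested. The list median was 6.82 at E11, 4.77 at E12, 5.70 at E13, 6.96 at E14, 8.04 at E15, 9.42 at E16, 9.52 at E17, 9.54 at E18 and 9.99 at P0, lowest at E12 as Igf2 was. The interneuron list median was lowest at E12 too (9.46), and of the meninges list Lum, Col3a1, Slc6a13 and Aldh1a2 were lowest at other ages. All 3 choroid plexus genes tested rose (Ttr, Clic6 and Aqp1, list median between 2.12 and 7.18), while the highest readings of Kl and Folr1 were 2.30 and 2.40. Clic6 exceeded the filter level only from E16 on and Aqp1 only at E18 and P0, so their rise was set in part by the filter. Of the vessel markers, 5 of 6 pericyte genes rose and 1 fell (list median between 5.78 and 7.94) and 2 of 5 endothelial genes rose (7.53 to 8.50), with Pecam1, Cdh5, Tie1 and Emcn under 5 on every array. Gng13 of the sensory neuron list read 2.65 at E11, 3.10 at E15, 3.28 at E16, 4.56 at E17, 6.30 at E18 and 6.25 at P0, and exceeded the filter level at E18 and P0 only, as Igfbp6 did. Aqp1 of the choroid plexus list did so too (3.86 at E17, 6.43 at E18 and 7.18 at P0). Of the same sensory neuron list Adcy3 rose, Ebf1 fell, and Omp and Cnga2 were under 5 on every array. The part of these cells in the levels of Igf2, Igfbp6 and Igfbp7 was not tested.

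Progenitor and red cell markers mostly had falling slopes, as Igf2r and Igfbp2 did, but not the same course. From E13 to P0 alone Igfbp2 had a slope of -0.0084 (limma adjusted p = 0.874), and Igf2r was higher at E12 (9.37) than at E11 (8.85). All 5 neural progenitor genes tested fell (Sox2, Pax6, Nes, Hes5 and Nr2e1), with a list median of 11.37 at E11, 10.08 at E15 and 9.46 at P0. Of 5 red cell genes tested 4 fell and 0 rose, with a median of 13.19 on the E11 array, 7.63 on the E15 array and 3.02 on the P0 array, while Epor stayed under 5 on every array. Their part in the fall of Igf2r and Igfbp2 was not tested.

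**Figure D3:**
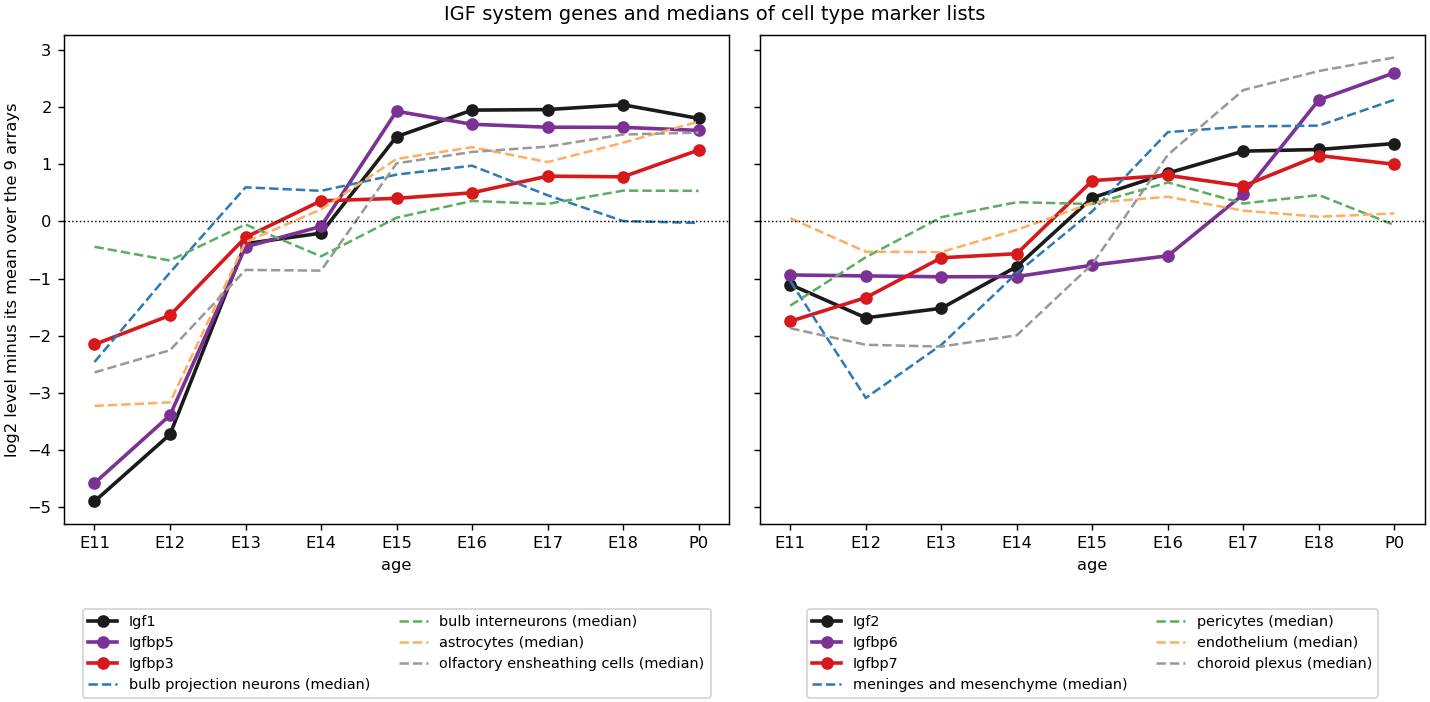
Log2 level minus its own mean over the 9 arrays (y axis) by age (x axis), for members (solid lines with points, 1 animal per age) and for medians of cell type marker lists (dashed). The left panel sets Igf1, Igfbp5 and Igfbp3 beside neural and glial lists, and the right panel Igf2, Igfbp6 and Igfbp7 beside coverings and vessels. Igf1 and Igfbp5 step up at E13 and E15. Every list of the left panel is also higher at E13 than at E12 and at E15 than at E14, by different amounts. The meninges and interneuron lists are lowest at E12, as is Igf2.

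Genes whose course was most like that of each member were taken by Pearson correlation of the levels over the 9 arrays, among all genes tested. Closest to Igf1 were Pde4d, a cyclic AMP phosphodiesterase (r = 0.996, Spearman rho 0.83), and Ryr3, a calcium release channel (r = 0.996, rho 0.98). Closest to Igfbp5 were Pfkp, a phosphofructokinase, and Scn2a, a sodium channel (r = 0.998 for each). Closest to Igf2 were Col6a2, a collagen VI chain of connective tissue (r = 0.995), and Lgr4, a receptor for R-spondins (r = 0.992). For Igfbp3 they were Tnc, a matrix glycoprotein, and Tmem179 (r = 0.993 for each), and for Igfbp7 Bmp7, a bone morphogenetic protein (r = 0.996), and Mybpc1 (r = 0.994). Igf1r was closest to Tsc1, a brake on the mTOR kinase (r = 0.940), and H13, a signal peptide peptidase (r = 0.933), and Igf2r to Cbfa2t2 (r = 0.954) and Etv3 (r = 0.949). Igfbp2 was closest to Pdk3 (r = 0.967) and Dus1l (r = 0.964), Igfbp4 to Aldh1a7 (r = 0.980) and Hsd3b7 (r = 0.974), and Igfbp6 to Gng13, a G protein subunit that is also in the sensory neuron marker list (r = 0.992), and Abca8a (r = 0.984). All points share the same arrays and age order, and these are the best of many genes, so the values are a description only.

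The other genes of the pathway moved in both directions. Of 72 listed genes 51 were tested, 13 rose, 10 fell and 28 did not pass, shares close to the 25.2% rising and 21.9% falling of all genes, and the median slope was 0.021. Of 9 adaptor genes tested 1 rose and 1 fell. Grb14, an inhibitory adaptor of the insulin receptor, rose by 0.41 ± 0.071 (moderated SE; limma adjusted p = 0.00109), reading 6.30 at E11, 9.80 at E15 and 9.90 at P0. Grb10, an imprinted inhibitor of insulin and IGF receptors, fell by 0.19 ± 0.034 (limma adjusted p = 0.00120), reading 13.33 at E11, 11.82 at E15 and 11.38 at P0. Irs1, the adaptor next to the receptor, had a slope of 0.026 (limma adjusted p = 0.551) and Irs2 one of 0.13 (adjusted p = 0.0501), and neither passed. Insr, the insulin receptor, had a slope of -0.052 (limma adjusted p = 0.123), and Ghr, the growth hormone receptor, rose by 0.28 ± 0.055 (adjusted p = 0.00219).

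Of 19 genes of the PI3K, Akt and mTOR list 6 rose and 3 fell, with a median slope of 0.028. Of all genes tested, 25.2% rose and 21.9% fell. Foxo1, a transcription factor that Akt keeps out of the nucleus, rose by 0.43 ± 0.054 (moderated SE; limma adjusted p = 0.000180), and Pik3r1, the regulatory subunit of PI3K, by 0.38 ± 0.065 (adjusted p = 0.000950). Eif4ebp1, a brake on translation that mTOR relieves, fell by 0.23 ± 0.052 (limma adjusted p = 0.00484). Of 4 Ras and MAP kinase genes tested, Nras fell by 0.13 ± 0.020 (limma adjusted p = 0.000658) and 3 did not pass. Of the 8 genes for further IGF binding and storage and for proteases, 3 were tested. Htra1, a secreted protease that can cut IGF binding proteins, rose by 0.70 ± 0.069 (limma adjusted p = 4.74e-05). Its readings from E11 to E14 were under 5, and its probe set has a suffix that marks possible matches to several transcripts. Igfbpl1, a related gene of young neurons, had a slope of -0.0025 (limma adjusted p = 0.961). Pappa did not pass the filter.

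Genes that act on Igf2 RNA or its locus fell while Igf2 itself rose. All 4 tested fell, beside 21.9% of all genes. They were Igf2bp3 and Igf2bp1, which bind Igf2 RNA, the imprinted factor Plagl1 and the insulator protein Ctcf. Igf2bp3 had the steepest slope, -0.45 ± 0.026 (moderated SE; limma adjusted p = 4.99e-06), reading 11.01 at E11, 9.21 at E15 and 7.41 at P0. Plagl1 had a slope of -0.17 ± 0.036 (limma adjusted p = 0.00323), Igf2bp1 one of -0.17 ± 0.041 (adjusted p = 0.00740) and Ctcf one of -0.11 ± 0.021 (adjusted p = 0.00137). A link between the fall of these genes and the rise of Igf2 was not tested. H19 and Igf2bp2 were not analysed here. Of 9 genes of mannose 6-phosphate sorting, the other task of IGF2R, 4 rose and 1 fell, beside 25.2% rising and 21.9% falling of all genes. The lysosomal proteases Ctsl (0.18 ± 0.026), Ctsb (0.15 ± 0.027) and Ctsd (0.15 ± 0.022) rose, with limma adjusted p of 0.000406, 0.00134 and 0.000502, and M6pr, the other mannose 6-phosphate receptor, had a slope of -0.0056 (adjusted p = 0.866).

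**Figure D4:**
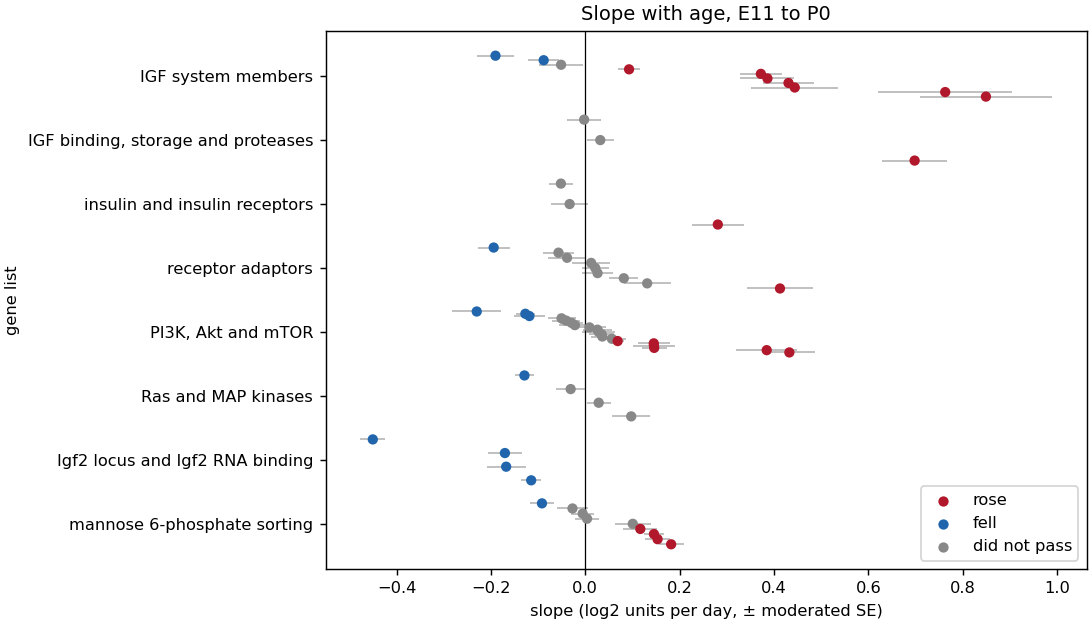
Slope with age in log2 units per day (x axis) with its moderated standard error, for the 10 members and for the tested genes of 7 pathway lists (rows), 1 point per gene over 9 arrays. Red points rose, blue points fell and grey points did not pass at an adjusted p of 0.05. The members reach 0.85 per day, and 4 of 4 genes of the Igf2 locus and RNA list lie left of 0.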

How the data were processed

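RNA of olfactory bulbs was measured on Affymetrix mouse arrays, 1 animal and 1 array per age. The deposited table holds a log2 level for each probe set, which the authors computed by GCRMA, per the submitters' processing notes. The range of the values gave the log2 scale. The GCRMA version is not given in the sources used here. GCRMA corrects background by probe sequence, so low readings pile up at a floor and folds from there are bounds. Per the labels' protocols, RNA was amplified in 2 rounds, and such amplification favours the 3' ends of transcripts, which can set probe sets of 1 gene apart. The number of arrays limits the precision.

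Gene names came from the platform annotation (34958 of 45101 probe sets with 1 name, 932 with several, 9211 with none; 64 were controls). Entrez IDs matched RefSeq for 34754, and 0 symbols changed. Probe sets of 1 name at log2 5 or more on at least 2 arrays were kept, and for each gene the one with the highest mean was used. Slopes on age (P0 at day 19) were fitted with limma 3.58.1 in R 4.3.3 (moderated variance with a trend, two-sided, Benjamini-Hochberg over 10864 genes, threshold 0.05, 7 residual degrees of freedom), peaks and dips by the quadratic term with a turning point between day 12 and day 18. Differences between members were tested over all 362880 orders of the arrays. Procedures were tested on simulated data. Members, lists and tests were chosen with earlier results of these data known. Named genes were all members, the genes of each pathway list with up to 3 largest slopes past the threshold, 9 genes fixed by name, and the 2 genes closest in course to each member. Ctcf, M6pr and the markers given singly for other cell types were named after their values were seen. Some listed genes were not analysed here. Promoter windows are from RefSeq, GRCm38.p6, and all 10 members matched.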

Additional observations from a re-analysis of the deposited data

How the results depend on the processing

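The count of 7 rising members held without any 1 array and was between 5 and 7 under the other alternatives over E11 to P0 or E13 to P0; 5 was found without probe sets of ambiguous suffix, where 3 members dropped out. Over 5 arrays each, alternatives added after the levels were seen, it was 4 from E11 to E15 and 2 from E15 to P0. The count of 2 falling members was between 1 and 2 with 1 array left out. It was 1 without a filter, with P0 at day 20, with the level of Xist as a covariate, without the variance trend, without ambiguous probe sets, by exact rank correlation and from E11 to E15, and 0 from E15 to P0. Igfbp2 was the member lost or left out in these, except from E11 to E15, where it fell and Igf2r did not pass, and from E15 to P0, where neither passed. Members with a peak numbered 2 to 4 with 1 array left out and 0 from E13 to P0. Members with a dip numbered 0 to 2 with 1 array left out. They were 0 from E13 to P0 and with the Xist covariate, and 1 without a filter, with the stricter filter (5 arrays), with values set to 5, with P0 at day 20, without the trend and without ambiguous probe sets. Signs turned for Igf1r from E11 to E15 (slope 0.17) and from E15 to P0 for Igfbp2 (0.019) and Igfbp5 (-0.072). The slope of Igf1 minus Igf2 was 0.19 to 0.55 with 1 array left out and -0.072 from E13 to P0, and that of Igf1r minus Igf2r was 0.094 to 0.18 and -0.023. Igfbp5 minus Igfbp2 was 0.64 to 1.05 with 1 array left out, 0.34 from E13 to P0 and 0.73 as a rank correlation. The causes were not tested.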

Other observations

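Probe sets of neighbouring transcripts stood at the floor on every array. The antisense transcripts Igf1os (highest reading 2.96) and Igf2os (2.19) and a probe set shared by Airn, the imprinted antisense RNA of the Igf2r locus, and Igf2r itself (2.42) did not pass the filter, and 0 of these 3 probe sets was tested.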
